A study of Mus musculus with 2 samples.

Results

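Mpo, Elane, Prtn3, Ctsg and Ms4a3 are genes of early myeloid cells, and they are 5 of the 33696 genes counted in 2 single-cell RNA libraries of mouse immune cells. They were taken by symbol (ENSMUSG00000009350, ENSMUSG00000020125, ENSMUSG00000057729, ENSMUSG00000040314 and ENSMUSG00000024681), and each symbol had a single row. The KO library came from mice with floxed Bicd2 alleles and Cre under the albumin promoter (Alb-Cre Bicd2fl/fl), which is active in hepatocytes. The WT library came from mice with the same floxed alleles and no Cre (Alb-WT Bicd2fl/fl). Both groups were immunised intraperitoneally, once in each of 3 weeks, with 2.5 mg of S-100, the supernatant of a liver homogenate, mixed with complete Freund's adjuvant, a model of autoimmune hepatitis. The series text describes liver immune cells taken from a Percoll gradient, freed of red cells, sorted alive and pooled. The sample labels name peritoneal cells and give HFD as the treatment, a conflict left unresolved. The number, age and sex of the pooled animals are not given.

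Each genotype was measured in 1 library. No difference below therefore has a replicate check or a test, and every 95% interval covers counting error only. Intervals on UMIs take each UMI as independent, while the UMIs of a gene can lie mostly in 1 cell. A unique molecular identifier (UMI) marks 1 captured RNA molecule, and CPM is UMIs scaled to a total of 1000000 UMIs for the cells summed. After barcodes with fewer than 200 genes or more than 20% mitochondrial UMIs were left out, 17675 KO and 20167 WT cells remained, with medians of 2001 and 2719 UMIs. Haemoglobin held 22.8% of the UMIs of kept KO cells and 10.97% of those of kept WT cells. Ptprc, the pan-leukocyte gene, had a UMI in 86.2% of KO and 88.3% of WT cells. The targeted gene Bicd2 was at 13.1 CPM in KO and 19.6 CPM in WT, which does not check the deletion, since albumin-driven Cre is not known to act in leukocytes. The libraries shared 107 kept barcodes, of which 0 in KO and 5 in WT belonged to the carrier cells defined below, and without them the fold between carrier shares was 68.6 in place of 69.4.

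Neutrophils are made in the bone marrow, and their granules are filled in order. Primary (azurophil) granules are made first, at the promyelocyte stage, and the genes of their proteins are switched off before the secondary granule genes come on. Mpo encodes myeloperoxidase, which makes hypochlorous acid. Elane, Prtn3 and Ctsg encode the serine proteases neutrophil elastase, proteinase 3 and cathepsin G. Ms4a3 encodes a membrane protein of granulocyte and monocyte progenitors and is used to trace that lineage in mice. Circulating neutrophils carry these proteins but little of the messenger RNA.

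The promoters are shown because the 5 genes were counted in the same cells. Factors known to act on such promoters are PU.1, C/EBP, MYB and RUNX proteins. Each window holds 250 bases before and 50 bases from the RefSeq start (GRCm38.p6), read 5′ to 3′ on the strand of the gene, with the start base counted as 1 and the base before it as -1. The letters searched on both strands were GAGGAA for PU.1, TTNNGNAA for C/EBP, CAACNG for MYB and TGTGGT for RUNX, chosen after the windows had been seen, and capitals mark the matches as they stand on the strand shown. The windows printed are chr10:79886062-79886361 (plus strand) for Elane, chr10:79879417-79879716 (plus) for Prtn3, chr14:56102525-56102824 (minus) for Ctsg and chr11:87793534-87793833 (plus) for Mpo.
Elane: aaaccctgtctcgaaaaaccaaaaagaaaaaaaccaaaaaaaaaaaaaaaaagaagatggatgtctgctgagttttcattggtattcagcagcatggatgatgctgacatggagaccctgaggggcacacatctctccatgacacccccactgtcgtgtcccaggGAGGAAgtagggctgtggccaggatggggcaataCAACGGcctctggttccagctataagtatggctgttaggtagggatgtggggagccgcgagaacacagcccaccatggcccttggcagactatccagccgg
Prtn3: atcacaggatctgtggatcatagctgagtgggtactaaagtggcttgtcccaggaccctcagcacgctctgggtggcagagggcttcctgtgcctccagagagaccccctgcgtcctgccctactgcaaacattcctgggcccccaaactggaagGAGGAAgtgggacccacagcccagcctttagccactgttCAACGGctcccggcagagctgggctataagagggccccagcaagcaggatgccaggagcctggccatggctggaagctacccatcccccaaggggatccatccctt
Ctsg: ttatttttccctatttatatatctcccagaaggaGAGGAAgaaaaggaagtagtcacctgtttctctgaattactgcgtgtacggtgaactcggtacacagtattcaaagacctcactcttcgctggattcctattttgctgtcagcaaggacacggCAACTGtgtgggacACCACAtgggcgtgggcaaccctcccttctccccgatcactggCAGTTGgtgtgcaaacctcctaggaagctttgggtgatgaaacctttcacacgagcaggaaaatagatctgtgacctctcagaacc
Mpo: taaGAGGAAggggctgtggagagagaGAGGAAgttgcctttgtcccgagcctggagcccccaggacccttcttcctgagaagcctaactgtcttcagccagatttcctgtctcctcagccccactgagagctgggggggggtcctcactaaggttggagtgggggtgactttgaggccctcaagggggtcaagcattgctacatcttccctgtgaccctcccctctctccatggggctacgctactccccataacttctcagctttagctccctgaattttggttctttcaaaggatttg

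The PU.1 letters were found in all 5 windows and in 28.3% of the 32851 RefSeq windows of this length. In Elane the match began at -85 and was followed by the MYB letters CAACGG at -51. Prtn3 held the same 2 words in the same order, at -95 and -56. Ctsg had a PU.1 match at -216, MYB matches at -93 and -36 and a RUNX match at -79. Mpo had PU.1 matches at -247 and -224 and no MYB match. Ms4a3, not printed, had PU.1 letters at 36 and C/EBP letters at -59 and 42. PU.1 and MYB letters stood together in 3 of the 5 windows and in 9.79% of all windows. MYB letters alone were in 35.0%, C/EBP letters in 40.7% and RUNX letters in 16.8% of all windows. No matches overlapped. A match is a description of the letters and not a bound site. Because the letters were chosen after the windows had been seen, these shares cannot be read as enrichment.

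All 5 genes were lower in the KO library. Mpo was counted 103 times in KO cells (2.15 CPM) and 7102 times in WT cells (93.0 CPM), 43.2-fold lower in KO (interval 35.6 to 53.0). Elane was counted 309 times in KO (6.46 CPM) and 16070 times in WT (210.3 CPM), 32.6-fold lower (29.1 to 36.6). Prtn3 had 573 UMIs in KO (11.97 CPM) and 16008 in WT (209.5 CPM), 17.5-fold lower (16.1 to 19.1). In CPM, Prtn3 thus had the smallest fold, and its interval lies apart from those of the other 4, but on the log2 of CPM plus 1 it was at -4.02 beside -3.99 for Ms4a3. Ctsg had 58 UMIs in KO (1.21 CPM) and 4581 in WT (59.96 CPM), 49.5-fold lower (38.2 to 65.3). Ms4a3 had 30 UMIs in KO (0.627 CPM) and 1892 in WT (24.8 CPM), 39.5-fold lower (27.6 to 58.7). The intervals of Mpo, Ctsg and Ms4a3 overlap each other. None of these intervals covers the gathering of UMIs in single cells, so they do not settle the order of the genes. For comparison, 5.17% of the 16717 genes with at least 20 UMIs were at least 2-fold lower in KO and 1.89% at least 2-fold higher on the log2 of CPM plus 1, and all 5 genes were among those lower.

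A single cell weighed heavily in KO. It held 229 of the 309 Elane UMIs (74.1%), 71 of the 103 Mpo UMIs (68.9%) and 128 of the 573 Prtn3 UMIs (22.3%), while the highest WT cell held 6.33% of the library's Elane UMIs. Scrublet marked that KO barcode as a doublet, and 21.9% of its UMIs were haemoglobin. Without it the log2 ratio of KO over WT was -6.31 for Elane, against -4.82 with it, and -5.82 for Mpo, against -4.90. The barcodes left out by the filters held between 0 and 3 UMIs of each gene in KO and between 5 and 42 in WT.

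Cells with at least 3 of the 5 genes are called carriers here. There were 6 of 17675 KO cells (0.0339%, exact binomial interval 0.0125 to 0.0739) and 475 of 20167 WT cells (2.36%, 2.15 to 2.57). The KO share was 69.4-fold below that of WT (31.0 to 155). Red-cell lysis, the sort and depth can set such shares. Over a total without the clusters of high haemoglobin the fold was 60.6 (27.1 to 135). All 5 genes were seen together in 2 KO and 201 WT cells, 4 in 2 KO and 104 WT cells, and 3 in 2 KO and 170 WT cells. Cells with a single one of the genes numbered 221 in KO, with 1 to 7 UMIs of it, and 2275 in WT, with 1 to 8 UMIs, and the median was 1 in both. In WT cells with all 5 genes, the summed UMIs were 8 to 1915 with a median of 139. The carriers held 67.8% of all UMIs of the 5 genes in KO and 91.2% in WT.

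**Figure D1:**
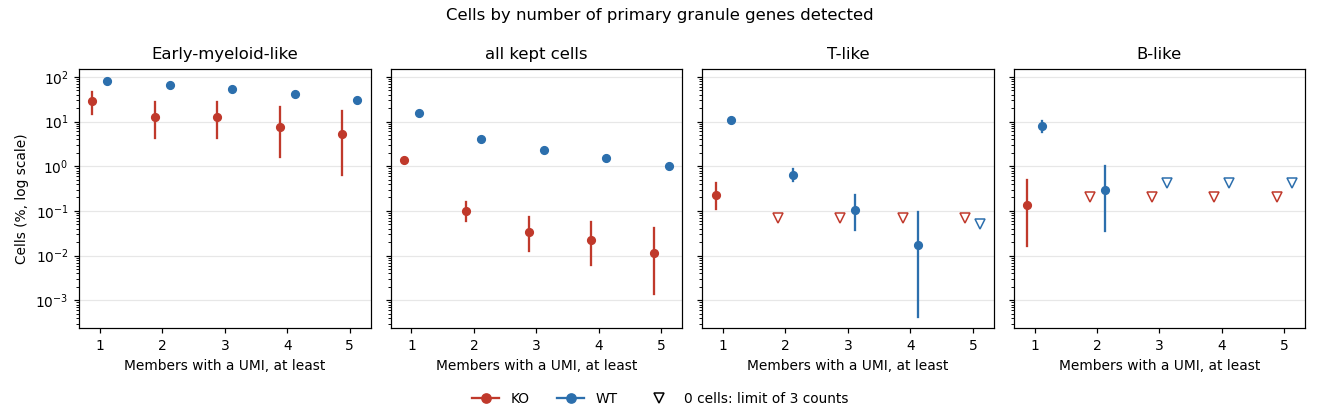
Percent of cells (log scale) with a UMI of at least 1 to 5 of the primary granule genes, in early-myeloid-like cells, all kept cells, T-like cells and B-like cells, KO in red to the left of WT in blue. Points are shares, bars are exact 95% binomial intervals, and open triangles are the limit of 3 counts where no cell was seen. Among all kept cells the share with at least 3 genes is 0.0339% in KO and 2.36% in WT, and among B-like cells no cell has 3.

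Lymphocytes are not known to make granule proteins, so their UMIs of the 5 genes serve here as a background, and whether these came from free RNA, from doublets or from the cells themselves was not tested. Of B-like cells, 2 of 1467 in KO (0.136%) and 54 of 694 in WT (7.78%) had a UMI of any of the 5 genes, at median depths of 1550 and 2152.5 UMIs. After thinning to 1000 UMIs, which left out the cells with fewer, the shares were 0% and 3.35%. Of T-like cells, 10 of 4373 in KO (0.229%) and 643 of 5855 in WT (10.98%) had a UMI, at median depths of 1869 and 2751, and 0.0833% and 3.79% after thinning. Among all kept cells, 1.35% in KO and 15.4% in WT had a UMI of any of the 5 genes, and 0.416% and 6.94% after thinning.

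Cells with 3 genes were rare among lymphocytes. No B-like cell of either library had more than 2 of them. Among T-like cells, 0 of 4373 in KO (at most 0.0686% by the limit of 3 counts) and 6 of 5855 in WT (0.102%) had at least 3, and Scrublet marked 3 of those 6. Summed over B-like and T-like cells, the 5 genes were at 1.201 CPM in KO and 33.4 CPM in WT, 27.8-fold lower in KO (16.8 to 49.9). All kept cells gave 26.7-fold (25.1 to 28.3), but 461 of the 1073 KO UMIs behind that value lay in the doublet-marked cell. The nearness of these folds therefore rests on that cell. In KO, no UMI of Ctsg or Ms4a3 was counted in B-like or T-like cells, and 8 of Elane, 5 of Prtn3 and 2 of Mpo were. NK-ILC1-like cells, which carry markers such as Ncr1 and Klrb1c of natural killer cells, had 0.342 CPM of the 5 genes in KO and 43.4 CPM in WT, and erythroid-like cells 0.316 and 23.8 CPM.

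The 6 KO carriers differed widely from each other, and their median depth was 13358 UMIs, against 7168 in the WT carriers. The first had 1 Elane, 4 Prtn3 and 1 Ctsg UMIs, and no Mpo or Ms4a3. The next, the only one in a neutrophil-like cluster, had 1 Mpo, 7 Elane, 8 Prtn3 and 1 Ms4a3 UMIs. The third had 11 Elane, 30 Prtn3 and 4 Ms4a3 UMIs. All 3 lacked Ctsg or held a single UMI of it, and none had more than 1 Mpo UMI. The fourth had 18 Mpo, 21 Elane, 7 Prtn3 and 4 Ms4a3 UMIs. The fifth had 6 Mpo, 8 Elane, 112 Prtn3, 20 Ctsg and 3 Ms4a3 UMIs, with 13.01% haemoglobin. The last, the doublet-marked cell with most UMIs, had 71 Mpo, 229 Elane, 128 Prtn3, 23 Ctsg and 10 Ms4a3 UMIs. The Prtn3 counts of the 6 cells thus ran from 4 to 128.

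The 475 WT carriers spanned a wider range than the 6 KO carriers for every gene, as a larger number of cells can. Mpo was at 0 to 205 UMIs per carrier with a median of 3, Elane at 0 to 1018 with a median of 8, and Prtn3 at 0 to 447 with a median of 11. Ctsg was at 0 to 199 with a median of 2 and Ms4a3 at 0 to 46 with a median of 1. Each KO value lies inside the WT range of its gene, but that range covers 475 cells and starts at 0, so this does not show likeness. Prtn3 had a UMI in 6 of 6 KO and 97.9% of WT carriers, Elane in 6 of 6 and 89.5%, Mpo in 4 of 6 and 74.1%, Ctsg in 3 of 6 and 73.7%, and Ms4a3 in 5 of 6 and 71.4%. Carriers were chosen by detection of these same genes, which raises such shares. The 5 genes together reached 4.61% of a KO cell's UMIs and 7.52% of a WT cell's UMIs. Scrublet marked 1 of the 6 KO carriers and 71 of the 475 WT carriers (14.9%).

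**Figure D2:**
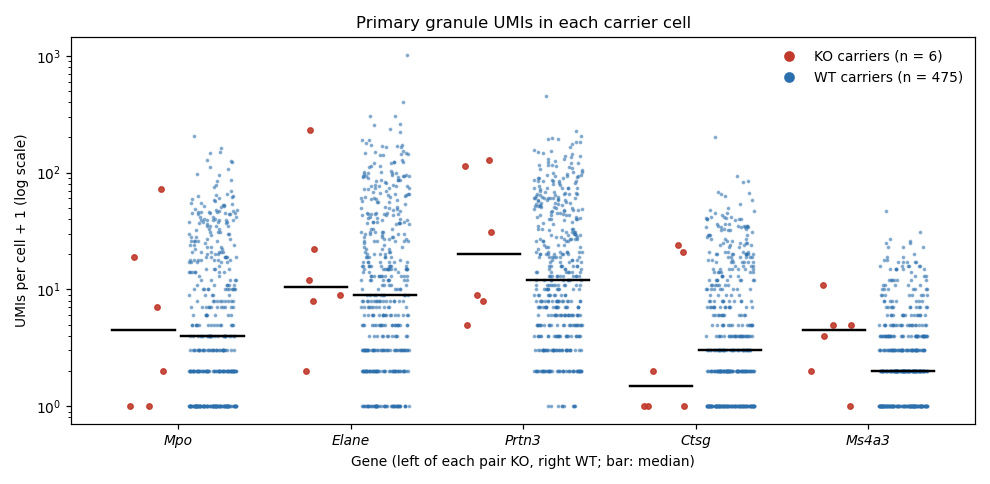
UMIs per cell plus 1 (log scale) of each primary granule gene in every carrier, 6 KO cells in red left of 475 WT cells in blue, with the median as a black bar. The KO points lie inside the WT ranges, which start at 0 UMIs and reach 1018 for Elane and 447 for Prtn3. With so many more WT cells, this does not show likeness.

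Clusters were made without the 5 genes and named from cell type markers. Cluster 18 (early-myeloid-like) held 39 KO and 580 WT cells. It met the markers Cd34, Myb, Prss57 and Sox4, which mark progenitors, but not Kit, Gfi1, Cebpe or Fcnb of the same marker list. Cd34 had a UMI in 4 of 39 KO cells (10.3%) and 159 of 580 WT cells (27.4%), and Myb in 25.6% and 48.4%. Prss57 was in 7.69% and 16.4%, and Sox4 in 15.4% and 22.2%. The name was given to KO and WT cells pooled, and Scrublet marked 21.2% of the cluster. Cluster 18 held 5 of the 6 KO carriers and 308 of the 475 WT carriers, that is 12.8% of its KO cells (4.297 to 27.4) and 53.1% of its WT cells (48.9 to 57.2). All 5 genes were lower per UMI in its KO cells. Mpo was at 398 CPM in KO and 1138 CPM in WT, 2.86-fold lower in KO (2.33 to 3.53). Elane was at 1121 and 2393 CPM, 2.14-fold lower (1.89 to 2.42), and Prtn3 at 1191 and 2508 CPM, 2.11-fold lower (1.87 to 2.37). Ctsg was at 187 and 775 CPM, 4.15-fold lower (3.09 to 5.70), with an interval that overlaps those of Mpo and Ms4a3. Ms4a3 was at 87.2 and 235 CPM, 2.69-fold lower (1.75 to 4.37). All 5 folds within the cluster are below those of the whole libraries. The KO values rest on few cells, since 461 of the 719 KO UMIs of the 5 genes lay in the doublet-marked cell. Without it, Elane was at 178 CPM in KO, 13.5-fold lower than in WT (9.93 to 18.8), Mpo at 108 CPM, 10.5-fold lower (7.11 to 16.3), and Ctsg at 95.3 CPM, 8.13-fold lower (5.36 to 12.99). Prtn3 was then at 688 CPM, 3.64-fold lower (3.12 to 4.29), and Ms4a3 at 47.6 CPM, 4.93-fold lower (2.75 to 9.90).

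Neutrophil-like cluster 5, led by the secondary granule genes Camp, Ngp and Ltf, held 149 KO and 2207 WT cells. It had 1 KO carrier and 122 WT carriers (5.53% of its WT cells, 4.61 to 6.56). Elane was at 16.03 CPM in KO (8 UMIs) and 229.9 CPM in WT, and Prtn3 at 16.03 CPM (8 UMIs) and 164 CPM. The single KO carrier held 7 of those Elane and all 8 of those Prtn3 UMIs. Ms4a3 was at 14.03 CPM in KO, in 5 cells, and 42.7 CPM in WT, in 250 cells, 3.04-fold lower (1.46 to 7.61). Mpo was at 2.004 and 35.8 CPM, and Ctsg had 0 UMIs in KO and 8.24 CPM in WT. Cluster 1, the neutrophil-like cluster with 1298 KO and 2315 WT cells, was near the floor, at 2.84 CPM of all 5 genes in KO and 49.1 CPM in WT, 1.47 times the lymphocyte level in WT (1.26 to 1.72).

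**Figure D3:**
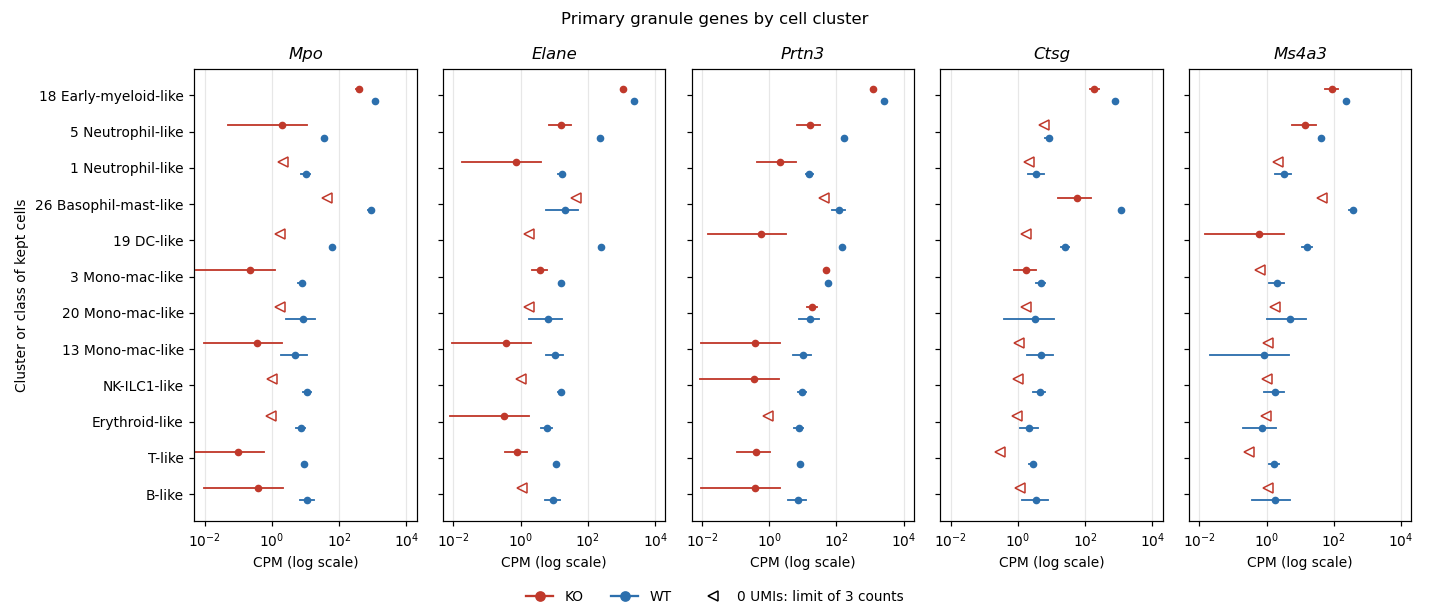
Level of each primary granule gene in CPM (log scale) by cluster or class, KO in red above WT in blue, with exact 95% Poisson intervals, some of which run past the left axis limit, and open triangles at the limit of 3 counts where 0 UMIs were counted. Cluster 18 is highest in KO for all 5 genes, Ctsg and Ms4a3 in WT are higher in basophil-mast-like cluster 26 than in cluster 18, and Prtn3 in cluster 3 is at 49.5 CPM in KO and 57.2 CPM in WT.

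In a monocyte cluster, Prtn3 was above its lymphocyte level in both libraries. Cluster 3 (monocyte-macrophage-like, with Ly6c2, Ccr2 and F13a1) held 1003 KO and 1723 WT cells. Prtn3 was counted 226 times there in KO (49.5 CPM, 43.3 to 56.4) and 473 times in WT (57.2 CPM, 52.2 to 62.6), a ratio of 0.865 (0.735 to 1.016), whose interval holds equality. It was seen in 160 KO cells (15.95%) and 264 WT cells (15.3%), and after thinning in 3.27% and 4.06%, against 0.0211% and 0.914% in B-like and T-like cells. Its level was 124 times that of B-like and T-like cells in KO (52.3 to 385) and 6.99 times in WT (5.90 to 8.32). Most of these cells had Prtn3 alone, 149 of 160 in KO and 208 of 264 in WT. The highest cell had 7 UMIs in KO and 18 in WT.

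Of the other 4 genes in the same cells, Mpo had 1 UMI in KO and 64 in WT, where its level was 0.833 times that of lymphocytes (0.620 to 1.105). Elane had 17 UMIs in KO (3.73 CPM) and 133 in WT (16.1 CPM), 5.82 times (2.38 to 15.6) and 1.41 times (1.14 to 1.75) the lymphocyte levels. Ctsg had 8 UMIs in KO, in 8 cells (1.75 CPM), where B-like and T-like cells had 0, at least 7.30-fold higher against a floor of 3 counts over those lymphocytes. In WT it had 39 UMIs (4.72 CPM), 1.67 times the lymphocyte level (1.09 to 2.52). Ms4a3 had 0 UMIs in KO and 17 in WT. Cluster 3 thus held 80.4% of the KO cells with a Prtn3 UMI and 17.2% of the WT cells with one. In cluster 20, led by complement C1q genes, Prtn3 had 32 UMIs in 9 of 346 KO cells (19.2 CPM) and 10 UMIs in 8 of 130 WT cells (16.4 CPM), a ratio of 1.17 (0.559 to 2.66), and no UMI of the other 4 genes was counted there in KO. In monocyte-macrophage-like cluster 13, Prtn3 had 1 UMI in 966 KO cells and 12 in 330 WT cells.

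Basophil-mast-like cluster 26 (Mcpt8, Cpa3, Gata2, Prss34) carried a different mixture. In its 62 WT cells Ctsg was at 1186 CPM (1038 to 1349), Mpo at 857 CPM (732 to 998) and Ms4a3 at 370 CPM (289 to 465.5). Ctsg and Ms4a3 were above their WT levels in cluster 18, with intervals apart, and Mpo below. Elane, with 4 UMIs (20.5 CPM), was 1.80 times the lymphocyte level (0.487 to 4.67), and Prtn3 was at 118 CPM (74.8 to 177). All 11 WT carriers of the cluster had Mpo, Ctsg and Ms4a3, while Elane was seen in 1 and Prtn3 in 5, and Scrublet marked 0 of the 11. The 31 KO cells held 4 Ctsg UMIs in 1 cell and 0 UMIs of the other 4 genes, which allows up to 53.3 CPM of each.

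Conventional dendritic (DC-like) cluster 19, led by Xcr1 and Clec9a, had 2 UMIs of the 5 genes in 247 KO cells and 1158 in 295 WT cells. Of the WT UMIs, 1114 lay in 10 carriers, 6 of them marked as doublets, and 1 cell held 402 Elane UMIs. The part of doublets in these values was not tested.

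The mixture of the 5 genes is given as each gene's share of their summed UMIs, which compares the same gene between cells. In carriers, Mpo took 13.2% in KO and 15.6% in WT, Elane 38.0% and 36.2%, Prtn3 39.7% and 34.2%, Ctsg 6.04% and 10.3%, and Ms4a3 3.02% and 3.71%. The KO shares rest on 6 cells, and without the doublet-marked cell Prtn3 took 60.3% there. In WT B-like cells Mpo took 33.9% (21.8 to 47.8) and Prtn3 21.4% (11.6 to 34.4), and in WT T-like cells Mpo took 27.4% (24.2 to 30.8) and Prtn3 24.8% (21.7 to 28.1). These lymphocyte shares hold for the clusters, since lymphocytes gated by markers, which held 13 carriers among WT B cells and 41 among WT T cells, gave 38.2% and 37.3% for Prtn3. In cluster 18, Prtn3 took 39.9% in KO and 35.6% in WT, Elane 37.6% and 34.0%, and Ctsg 6.26% and 10.99%, but without the doublet-marked cell Prtn3 took 61.6% and Elane 15.9% of the remaining 258 KO UMIs. In cluster 5 of WT, Elane took 47.8% and Ctsg 1.72%, and in cluster 26 of WT, Ctsg took 46.5% and Elane 0.805%. In cluster 3, Prtn3 took 89.7% in KO and 65.2% in WT.

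**Figure D4:**
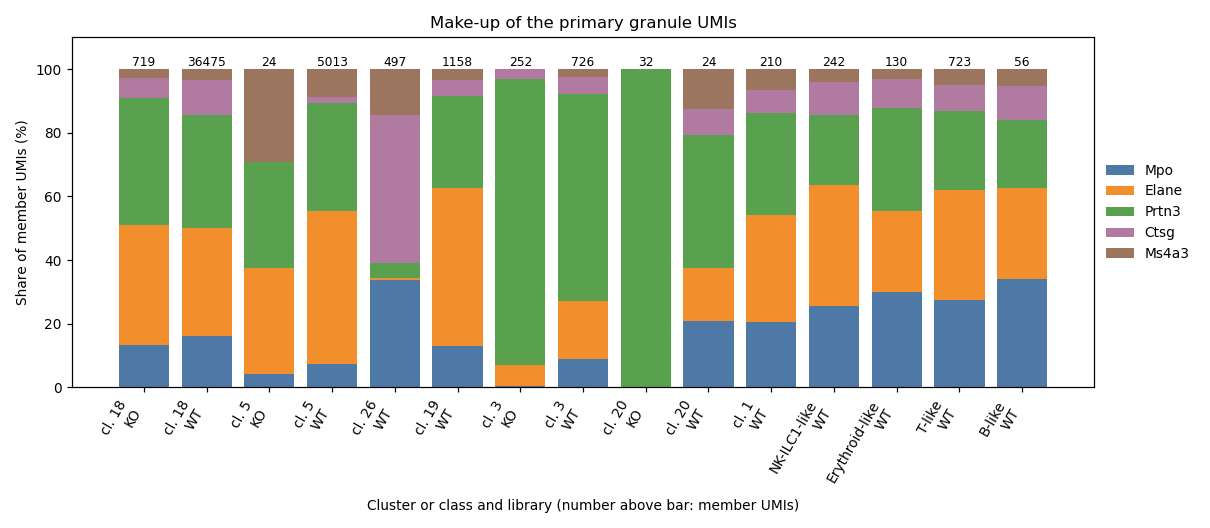
Share of the summed UMIs of the 5 primary granule genes taken by each gene, in percent, for clusters and classes described in the text (KO left of WT where both are shown), with the number of UMIs above each bar. In cluster 18 Ctsg takes 6.26% in KO and 10.99% in WT, with 461 of the 719 KO UMIs in 1 cell, while cluster 26 is mostly Ctsg and Mpo, and clusters 3 and 20 of KO are mostly or wholly Prtn3.

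Within the 308 WT carriers of cluster 18, all gene pairs were positively correlated over cells of 1 library that differ in depth. Each cell entered with the log2 of CPM plus 1, scaled to its own total. The cells were chosen as carriers by detection of these same genes, so the correlations hold only for cells picked that way. Spearman's rho ran from 0.609 for Mpo and Ms4a3 to 0.860 for Elane and Prtn3, and Pearson's r from 0.269 for Elane and Ctsg to 0.670 for Elane and Prtn3. Over 54 sums of cluster and library, the genes most like the mean of the 5 were Dio2 (Pearson's r 0.811), Plppr3 (0.774), Egfl7 (0.771), Pnp2 (0.758), Muc13 (0.753), Prss57 (0.748), Erg (0.698), Fcnb (0.694), Cdca3 (0.689) and Ankle1 (0.680). No minimum count was set for this ranking, and some of these genes were near the floor. Dio2 was at 4.15 CPM in KO and 10.2 CPM in WT cells of cluster 18, with a median of 0 CPM over the other sums. Prss57 encodes a further serine protease of primary granules, and Fcnb a ficolin of neutrophil granules. Against the mean of the other 4, Mpo had 0.952, Prtn3 0.900, Elane 0.899, Ms4a3 0.897 and Ctsg 0.830.

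The WT carriers were compared with all other WT cells by gene lists, in which called means at least 2-fold apart on the log2 of CPM plus 1 among genes with at least 20 UMIs. Of all 15701 such genes 11.4% were higher and 15.1% lower in the carriers, with a median log2 ratio of -0.09. All 12 cell division genes were higher (median 1.70), such as Mcm5, which licenses DNA replication, at 127 CPM in carriers and 27.0 CPM in other cells, and Top2a, a topoisomerase of dividing cells, at 606 and 207 CPM. Of the 10 early myeloid regulators 4 were higher and 0 lower (median 0.82), with Myb, a factor of progenitor growth, at 156 and 16.3 CPM and Cebpa, which drives granulocyte fate, at 53.6 and 15.3 CPM. Of 6 progenitor surface genes 3 were higher and 0 lower (median 1.35), among them Cd34 at 50.1 and 4.02 CPM.

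Genes of granule filling were mixed in the same comparison. Of 6 genes of protease activation, packaging and inhibition, 3 were higher and 0 lower (median 0.97). Serpinb1a, an inhibitor of these proteases, was at 266 CPM in carriers and 98.0 CPM in other cells, and Ctsc, the peptidase that activates them, at 387 and 208 CPM. Of 7 other primary granule and lysosomal genes 3 were higher and 1 lower (median 0.16), and Prss57 was at 49.2 and 2.24 CPM. An eighth, Bpi, had too few UMIs to pass the filter in any comparison. Of 10 secondary and tertiary granule genes 1 was higher and 2 lower (median 0.18), with the antimicrobial peptide gene Camp higher and the gelatinase Mmp9 at 36.2 and 293 CPM. Of 8 mature neutrophil genes 0 were higher and 6 lower (median -2.50), such as the chemokine receptor Cxcr2 at 39.0 and 206 CPM. Of 14 genes induced by interferon-gamma 0 were higher and 12 lower (median -1.43).

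Carriers of cluster 5 were set against carriers of cluster 18 within WT. In CPM, all 5 primary granule genes had lower values in cluster 5 carriers. Ctsg (70.8 and 1132 CPM), Mpo (395 and 1692 CPM) and Prtn3 (1696 and 3613 CPM) were past 2-fold. Of these, Prtn3 was nearest the threshold, with a log2 ratio of -1.09 beside a median of -0.72 over all genes. Elane was at 2766 and 3556 CPM and Ms4a3 at 295 and 349 CPM. Their log2 ratios of -0.36 and -0.24 lay above the median over all genes, so they were not lower than most genes. Of 9967 genes 4.72% were higher and 36.9% lower in cluster 5 carriers, with a median log2 ratio of -0.72. Of 10 secondary and tertiary granule genes 9 were higher and 0 lower (median 3.99), with Camp at 56541 and 339 CPM, lactoferrin (Ltf) at 3056 and 73.0 CPM and Orm1 at 251 and 1.15 CPM. Of 8 mature neutrophil genes 6 were higher and 0 lower (median 1.86).

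Of 10 regulators 2 were higher and 5 lower in cluster 5 carriers (median -0.92). Cebpe, the factor of secondary granule genes, was at 314 and 20.5 CPM, while Irf8, a factor of monocyte fate, was at 42.5 and 546 CPM and Klf4, another, at 10.3 and 164 CPM. Of 6 progenitor surface genes 0 were higher and 5 lower (median -3.58, or -2.22 with counts under 3 taken as 3). Of 6 genes of protease handling 2 were higher and 2 lower (median -0.65), with Cd63, a granule membrane protein, at 684 and 115 CPM and Ctsc at 59.2 and 458 CPM. Other primary granule genes were 0 higher and 1 lower of 7 (median 0.13), cell division genes 0 and 0 of 12 (median -0.35) and interferon-gamma genes 2 and 1 of 14 (median -0.04). These clusters were themselves formed from such genes, so the values describe them.

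Carriers of cluster 18 were also set against its other WT cells. Of 10539 genes 2.68% were higher and 7.66% lower, with a median log2 ratio of -0.13. Protease handling genes were 4 higher and 0 lower of 6 (median 1.35), with Cd63 at 115 CPM in carriers and 24.0 CPM in other cells, Srgn, the proteoglycan that packs granule proteins, at 1001 and 424 CPM, and the cystatin Cst7 at 68.4 and 17.6 CPM. Ctsc was at 458 and 477 CPM. Prss57 was at 50.5 and 5.26 CPM, and its list had 1 higher and 1 lower of 7 (median -0.07). Regulators were 2 higher and 0 lower of 10 (median 0.26), with Gfi1, a repressor needed for neutrophils, at 21.6 and 7.60 CPM and Cebpe at 20.5 and 8.77 CPM. Progenitor surface genes were 0 higher and 1 lower of 6 (median -0.61), the receptor Flt3 at 36.4 and 167 CPM. The remaining lists had 0 higher, with 0 lower of 12 for cell division (median -0.27), 0 of 8 for mature neutrophils (median -0.45), 2 of 9 for secondary and tertiary granules (median -0.73) and 3 of 14 for interferon-gamma (median -0.83). The 5 primary granule genes define the carriers and so differ by choice, with log2 ratios of 6.82 for Mpo, 6.60 for Elane, 6.10 for Ms4a3, 4.48 for Ctsg and 3.75 for Prtn3, which was at 3613 CPM in carriers and 267 CPM in the other cells.

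Carriers were last compared between genotypes, 6 KO cells with 104739 UMIs and 475 WT cells with 4590498 UMIs. Of 10203 genes 5.61% were at least 2-fold higher in KO and 27.3% lower, but most of those lower had 0 UMIs in KO, and with counts under 3 taken as 3 the share lower was 3.15%. Among the 5 primary granule genes, Ctsg was lower by 2-fold, at 420 CPM in KO and 932 CPM in WT. Mpo was at 917 and 1412 CPM, Elane at 2645 and 3285 CPM, Prtn3 at 2759 and 3104 CPM and Ms4a3 at 210.1 and 337 CPM. Without the doublet-marked KO cell, Elane was at 507 CPM in KO, 6.48-fold lower (4.89 to 8.80), Mpo at 264 CPM, 5.35-fold lower (3.62 to 8.28), Ctsg at 222 CPM, 4.20-fold lower (2.75 to 6.80), Ms4a3 at 127 CPM, 2.66-fold lower (1.52 to 5.16), and Prtn3 at 1699 CPM, 1.83-fold lower (1.56 to 2.15). Of 6 protease handling genes 1 was higher and 0 lower (median -0.13), Slpi, a protease inhibitor, with 48 UMIs in KO and 854 in WT. Other primary granule genes (0 and 0 of 7, median -0.16), regulators (0 and 0 of 10, median 0.04) and cell division genes (0 and 0 of 12, median 0.30) had none past 2-fold, beside a median of -0.27 over all genes.

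Several list members were at 0 UMIs in KO carriers, where the depth does not allow a 2-fold difference to be seen for weak genes. With counts under 3 taken as 3 in KO and WT alike, the median over all genes was 0.34, against -0.27 without that floor, and the share of all genes lower was 3.15%, against 27.3%. Mature neutrophil genes had 0 higher and 5 lower of 8 (median -2.88), but with counts under 3 taken as 3 only 1 was lower (median 0.00), Retnlg, a resistin-like protein, with 4 UMIs in KO and 1320 in WT. Interferon-gamma genes had 0 higher and 7 lower of 14 (median -1.10), or 3 lower with that floor (median -0.57), among them the guanylate-binding protein Gbp2, with 0 UMIs in KO and 327 in WT, at least 2.49-fold lower, and Irf1, with 1 and 444. Progenitor surface genes had 0 higher and 3 lower of 6 (median -1.07), and 0 lower with the floor (median -0.19). Cd34 had 0 UMIs in KO carriers and 230 in WT carriers, and Sox4 0 and 192. Secondary and tertiary granule genes had 0 higher and 1 lower of 10 (median -0.23), Mmp9, with 0 and 166 UMIs, and 0 lower with the floor. In WT carriers, 43945 of the 46037 Camp UMIs and 79239 of the 88268 S100a8 UMIs lay in the 122 carriers of cluster 5. KO had 1 carrier in that cluster. The values of the secondary granule and mature neutrophil lists thus depend on how carriers divide between clusters, which was not adjusted for.

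By a rule on counts and level, 49 genes were higher in KO carriers and 267 lower, with counting intervals apart from equality. These numbers cannot be set against each other. The rule asked for at least 50 counts in the higher library, and KO carriers held 104739 UMIs against 4590498 in WT carriers. The 10 highest were led by H2-Eb1, 3.29 times higher, but 54 of its 55 KO UMIs lay in 1 cell, as did 74 of 76 for H2-Aa and 111 of 112 for Cd74, all of MHC class II presentation. S100a4, a calcium-binding protein, was 3.02 times higher (2.41 to 3.73), with UMIs in 5 of 6 KO cells and 44 of its 92 UMIs in 1 of them, and Crip1 2.34 times. S100a6 was 2.11 and the cysteine protease inhibitor Cst3 2.02 times higher, with 63.1% and 68.6% of their KO UMIs in 1 cell. Higher too were the histone genes H2aj (1.9995 times) and H2ac24 (1.88 times, with 50.5% in 1 cell), and Tmem256 (1.85 times). All 10 lowest had 0 KO UMIs. Prss34 and Mcpt8, basophil proteases, were at least 16.6-fold and 9.46-fold lower against a floor of 3 counts, but were seen in 2.95% and 5.47% of WT carriers. The chemokine gene Ccl4 was at least 4.78-fold lower, in 6.11% of WT carriers. Snrpa, Gsto1, Rtf2, Gart, Snx4 and Id3 were at least 2.08-fold to 2.91-fold lower.

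Over all kept cells, where all 5 primary granule genes were lower, the lists describe what was lower beside them, next to a median log2 ratio of -0.05 over all genes, of which 5.17% were at least 2-fold lower and 1.89% at least 2-fold higher. Secondary and tertiary granule genes were lower in 10 of 10 (median -2.46), cell division genes in 12 of 12 (median -2.09), interferon-gamma genes in 10 of 14 (median -1.51) and mature neutrophil genes in 6 of 8 (median -2.09). Protease handling genes were lower in 4 of 6 (median -1.05), regulators in 3 of 10 (median -0.39), progenitor surface genes in 3 of 6 (median -0.97) and other primary granule and lysosomal genes in 2 of 7 (median -0.03). None of these lists had a gene at least 2-fold higher. The median of the 5 primary granule genes was -4.78.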

How the data were processed

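The values are whole UMI counts per gene and barcode, deposited unnormalized as 1 matrix per library. Cell Ranger 8.0.1 made them per the file headers. The submitters' processing notes list mm39 as the genome, Seurat 4.3.0 and an older Cell Ranger, 6.0.1. The libraries held 27033 KO and 22197 WT barcodes with 63869430 and 81159013 UMIs, and no barcode held fewer than 500 UMIs. Barcodes with fewer than 200 genes (9283 KO, 1919 WT) or more than 20% mitochondrial UMIs (75 KO, 111 WT) were left out. Doublets stayed in, as the rule for cells names none, and Scrublet in scanpy 1.11.5 marked 10.6% of KO and 14.9% of WT cells for an alternative without them.

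Cells of both libraries were clustered together without the 5 genes (10000 counts per cell, log transform, 2000 variable genes, 30 principal components, 15 neighbours, leidenalg 0.10.2 at resolution 1), which gave 27 clusters. Clusters were called X-like from fixed markers at least 2-fold higher and in at least 10% of cells, with at least 3 needed, and those of high haemoglobin stayed unnamed unless erythroid. Names were rebuilt here and are not the authors'. Members, gene lists and markers were chosen with earlier results of these data known.

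UMIs were summed and scaled to CPM, with exact Poisson, conditional binomial and Clopper-Pearson 95% intervals and a log-normal interval for the ratio of carrier shares. Only the conditional binomial interval was tested on simulated counts, for carriers of KO over WT. Those counts were Poisson sums without spread between cells. A count of 0 allows up to 3 counts. Shares were also taken after thinning to 1000 UMIs, over the 14646 KO and 17685 WT cells with at least that many. The genes named for carriers were the 10 highest and 10 lowest log2 ratios among genes with at least 50 counts and 50 CPM and an interval apart from equality, and those named for likeness the 10 with the highest Pearson's r, without mitochondrial, ribosomal, haemoglobin, antigen receptor, predicted and sex genes. Alternatives were scaling by TMM (edgeR 4.0.16) or by the size factors of DESeq2 1.42.0, other pseudocounts, filters, carrier rules and gates, doublets left out, and thinning. Leaving out the KO cell with the most UMIs, shared barcodes or clusters of high haemoglobin, the floor of 3 counts for lists and the alternatives for cluster 3 were chosen after seeing the data. Promoters came from the RefSeq table of GRCm38.p6, in which all 5 genes were found, and no other coordinates are given because the builds differ.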

Additional observations from a re-analysis of the deposited data

How the results depend on the processing

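No paired analysis was possible because each genotype has 1 library, which also leaves no replicate to leave out. Of 145 alternative values of 25 results, 106 stayed within the interval of the value reported, 39 moved outside it, and no value past its threshold changed sign. For the levels of the 5 genes in all kept cells, 26 of 45 moved outside. All 64 alternatives for list medians stayed within, but their intervals are medians of the limits of single genes and are wide. The log2 ratio of KO over WT in all kept cells was -4.90 for Mpo, -4.82 for Elane, -4.02 for Prtn3, -4.78 for Ctsg and -3.99 for Ms4a3. With a pseudocount of 0.1 it was -5.37 for Mpo, -5.00 for Elane, -5.52 for Ctsg and -5.10 for Ms4a3, and with 10 it was -3.08 for Mpo, -3.74 for Elane, -3.32 for Prtn3, -2.64 for Ctsg and -1.71 for Ms4a3. Without doublet-marked barcodes it was -5.87, -6.37, -4.41, -5.23 and -4.25 for Mpo, Elane, Prtn3, Ctsg and Ms4a3, without cells over 10% haemoglobin -5.75, -6.07, -4.43, -5.52 and -4.21, and without the KO cell with the most UMIs -5.82, -6.31, -4.35, -5.14 and -4.18. Without haemoglobin UMIs it was -4.66 for Elane and -3.84 for Prtn3. The log2 ratio of the carrier share was -6.12, and -7.63 after thinning, with 1 KO and 240 WT carriers, while other rules for carriers gave folds from 40.1 (at least 2 genes) to 88.1 (all 5). Shares of cells with any of the 5 genes were 0% of KO and 3.35% of WT B-like cells after thinning, 0.506% and 11.97% where B cells were gated by their markers rather than by cluster, and 0.0833% of KO and 3.79% of WT T-like cells after thinning. T cells gated by markers gave 13.2% in WT, and such gates held carriers, 2 in KO and 41 in WT among T cells and 0 and 13 among B cells. Prtn3 took 60.3% of the UMIs of the 5 genes in KO carriers without doublet-marked cells, 38.2% in gated WT B cells, and 73.2% of KO and 37.3% of WT UMIs in gated T cells. Prtn3 in cluster 3 had a log2 ratio of -0.20, 0.0387 without cells over 10% haemoglobin and 0.0022 with the lymphocyte level subtracted, so its direction is not settled. The causes of these moves were not tested. Medians of the gene lists in carriers have wide intervals and moved inside them, for mature neutrophil genes between -4.46 and -1.06 (reported -2.88), for progenitor surface genes between -3.56 and -0.70 (reported -1.07) and for interferon-gamma genes between -2.04 and -0.91 (reported -1.10). Of the medians near 0, that of secondary and tertiary granule genes turned from -0.23 to 0.22 in carriers with at least 10 summed UMIs, and that of regulators from 0.04 to -0.03 without doublet-marked barcodes. Depth limits every statement on KO carriers, which number 6, and on single UMIs in WT cells.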
